A study of Homo sapiens with 4 samples.

Results

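Transcripts of 10 genes that encode colony-stimulating factors, IL6-type cytokines, the related cytokine IL24 and receptor chains for IL6-type cytokines were followed in octanoate-treated melanoma cells. The genes were CSF1, CSF2, CSF3, IL6, IL11, LIF and IL24 for the cytokines and IL6R, IL6ST and LIFR for the receptors, 10 of the 56832 genes in the deposited table. They were picked by symbol, with their values under octanoate and vehicle already known. Differences of these 10 genes between the groups are therefore given as a description, without a test.

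The cells were A375, an established human melanoma line listed with a WT genotype and kept in DMEM with 10% FBS. One group received 1 mM octanoate, a saturated medium-chain fatty acid, and the other received the vehicle isopropanol. Both groups were collected at 48 h, and each held 2 RNA libraries. The data describe a single line, and the labels do not say whether the libraries of a group came from separate cultures, so p-values measure only the spread between these libraries, which may be technical.

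Colony-stimulating factors are secreted proteins that act on myeloid cells: CSF1 (M-CSF) on macrophages, CSF2 (GM-CSF) on granulocytes and macrophages, and CSF3 (G-CSF) on neutrophils. IL6, IL11 and LIF share the receptor chain gp130, the product of IL6ST, and need a second chain for their own recognition: IL6R for IL6, IL11RA for IL11 and LIFR for LIF. Receptor engagement activates JAK kinases and the transcription factor STAT3, which in turn switches on the inhibitor SOCS3. IL24 belongs to the IL10 family, does not use gp130 and was first described in melanoma cells as a differentiation-associated gene.

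The levels below are counts of reads per gene divided by 1 size factor per library. Whole reads could be recovered from them, 67785956 to 78005035 per library. Of the 10 genes, 8 had a mean of at least 10 normalised counts over the 4 libraries and entered the model fitted to all genes. The others were IL6 and CSF3, with means of 6.12 and 0.759, and CSF2 was the nearest gene above that limit at 162. The melanoma marker SOX10 stood at 34072 to 41363 normalised counts, whereas the pigment genes MLANA (34.9 to 52.02) and TYR (1.93 to 3.93) were low in all 4 libraries. Over 10 melanoma markers the summed levels were 46450 and 50680 in vehicle and 40060 and 45160 in octanoate, with 3 called by limma at an adjusted p under 0.05. S100B fell from 4234 and 3741 to 1917 and 1746 (log2 difference -1.12, SE 0.07, limma adjusted p 9.15e-12), and MITF fell from 3533 and 3330 to 2414 and 2511 (log2 difference -0.48, SE 0.06, limma adjusted p 2.33e-06). PMEL rose from 65.8 and 65.9 to 98.2 and 95.4 (limma adjusted p 0.0289), a call that ended with any 1 library left out (adjusted p 0.0758 to 0.124) and under 6 of 14 alternatives, with adjusted p from 0.0161 to 0.262. Summed over 10 leukocyte markers, the levels were 641 and 712 in vehicle and 797 and 843 in octanoate. LYZ held most of this (574 to 749) and was the only leukocyte marker called, as higher (limma adjusted p 0.0273). Of the 10 leukocyte markers, 7 had a mean under 10, among them PTPRC and CD3E, which stayed at or below 10.8 and 2.91. CSF1R (26.2 to 47.2) and CD14 (11.6 to 18.3) passed that limit and were not called. Group means of CSF1R, CD14, ITGAM, SPI1 and CD79A were higher under octanoate. Those of PTPRC, CD3E, CD68 and FCGR3A were lower. Sums ranged over vehicle and octanoate from 2622 to 2674 and 2279 to 2431 for 8 fibroblast markers, and from 625 to 626 and 823 to 843 for 6 endothelial markers. Of the fibroblast markers 3 were called, all lower: COL1A1, COL1A2 and FAP (limma adjusted p 3.63e-05, 0.0394 and 0.0173). Of the endothelial markers 2 were called, both higher: PECAM1 and VWF (limma adjusted p 1.05e-05 and 0.0479). For 6 keratinocyte markers the sums were 5684 to 6715 and 4793 to 6447, with KRT1 at 0. KRT10 held most of that sum (4566 to 6173), while KRT14 fell from 1110.1 and 942 to 266 and 218 (log2 difference -2.08, SE 0.11, limma adjusted p 2.40e-13). KRT5, TP63 and DSG3, all under the limit for testing, were lower in both octanoate libraries than in both vehicle libraries, but on few reads. KRT5 had 13 and 8 reads in vehicle and 3 and 3 in octanoate. For TP63 the reads were 11 and 11 against 6 and 6. DSG3 had 1 and 1 against 0 and 0, too few for a fold. Of all tested genes, 30.5% were lower without overlap, a share that does not cover genes under the limit such as KRT5, TP63 and DSG3. The part of these markers in the results was not tested, and in bulk RNA fewer cells of a type and less RNA per cell cannot be told apart.

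Among the cytokines, CSF2, IL11, IL24 and LIF were higher in both octanoate libraries than in both vehicle libraries, whereas CSF1 was slightly lower. Among the receptor chains, LIFR and IL6R were lower and IL6ST hardly differed. The limma model called 7 of the 8 genes (adjusted p under 0.05), with 4 of them higher and 3 lower; over all 20250 genes tested it called 29.9%, or 16.2% higher and 13.7% lower. The same 7 genes showed no overlap between the groups, 4 on the higher side and 3 on the lower. Of all tested genes 63.1% showed none, 32.6% on the higher side and 30.5% on the lower. Nothing is read from these counts, because the genes were chosen from the same comparison.

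**Figure D1:**
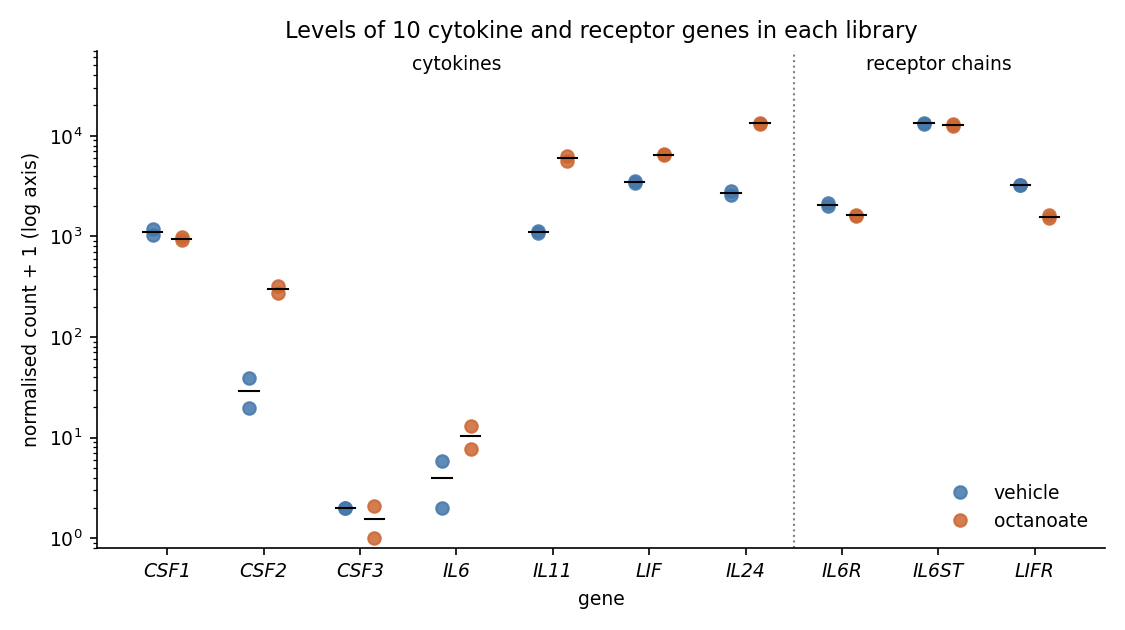
Normalised count plus 1 (log axis) of each gene in each library. Points are single libraries, 2 vehicle (blue) and 2 octanoate (orange) per gene, and short lines are group means. CSF2, IL11, LIF and IL24 separate upwards, LIFR and IL6R downwards, and the IL6ST points of the groups lie side by side.

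GM-CSF, the product of CSF2, is a growth and activation factor for granulocytes and macrophages. CSF2 (chr5:132073790-132076170, plus strand) had 18.6 and 37.8 normalised counts with vehicle against 319 and 272 with octanoate. Both octanoate libraries lay far above both vehicle libraries. The log2 difference was 3.42 (SE 0.23), and 9 of the 20250 tested genes had a larger rise. The vehicle level rested on 19 and 39 reads, so that the log2 difference ran from 2.93 to 3.91 when 1 library at a time was left out. Over both libraries of a group, 58 vehicle reads stood against 582 octanoate reads, a ratio of 10.5 with an exact 95% interval of 7.99 to 14.0 that covers counting error only. Over genes, the variance between replicates was 4.77 times that of counting error in vehicle and 6.5 times in octanoate, so the interval is too narrow. It is also no test, because CSF2 was chosen with its values known.

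CSF1 did not share the pattern of CSF2, and CSF3 had too few reads to tell. CSF1 (chr1:109910242-109930992, plus strand), the macrophage factor, had 1192 and 1034 normalised counts in vehicle and 974 and 913 in octanoate. The groups did not overlap, but the lower vehicle library lay only slightly above the higher octanoate library, and the log2 difference was -0.24 (SE 0.08). Its size ranged from -0.34 to -0.13 with 1 library left out. CSF3 (chr17:40015361-40017813, plus strand), the neutrophil factor, had 1 read in each vehicle library, none in octanoate 1 and 1 in octanoate 2. That is too few for a fold in either direction.

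IL11 encodes a gp130 cytokine studied in haematopoiesis, fibrosis and bone. IL11 (chr19:55364389-55370463, minus strand) stood at 1135 and 1089.9 normalised counts in vehicle and at 6318 and 5671 in octanoate. The replicates lay close together and the groups far apart, with a log2 difference of 2.43 (SE 0.07). Of the 9003 tested genes with a mean of at least 1000, 4 had a larger rise than IL11. A stretch of 127 bases of IL11 matches DCUN1D2 at 96.1% identity.

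LIF, leukaemia inhibitory factor, signals through gp130 paired with LIFR. LIF (chr22:30240447-30246851, minus strand) had 3515 and 3402 normalised counts in vehicle and 6584 and 6380.0 in octanoate. Both octanoate values exceeded both vehicle values, and the log2 difference of 0.91 (SE 0.06) was smaller than that of IL11. Among the genes with a mean of at least 1000, 93 had a larger rise than LIF.

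IL6, the founding cytokine of the family, was near the limit of detection in these cells. IL6 (chr7:22725884-22732002, plus strand) had 1 and 5 reads with vehicle against 7 and 11 with octanoate. Both octanoate values lay above both vehicle values. Summed over libraries, 6 reads stood against 18, a ratio of 3.13 with an exact 95% interval of 1.19 to 9.64 for counting error alone. The interval leaves out the spread between replicates and is no test, because IL6 was chosen with its values known. In GENCODE 29, 20.7% of the exon bases of IL6 also lie in exons of the antisense gene AC073072.1. A further overlap, of 2.22%, is with exons of STEAP1B on the opposite strand. STEAP1B had 1960 and 1906 normalised counts in vehicle and 2262 and 2203 in octanoate. A setting for strand in counting is not given in the sources used here, so the IL6 count is uncertain. Whether reads of these genes entered it was not tested.

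IL24 was the most abundant of the 7 cytokine transcripts per length in both groups. IL24 (chr1:206897443-206904139, plus strand) had 2792 and 2564 normalised counts in vehicle and 13518 and 13181 in octanoate. The replicates differed little within each group, and the log2 difference was 2.32 (SE 0.06). Among the genes with a mean of at least 1000, 5 had a larger rise than IL24.

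Of the receptor chains, LIFR differed most between the groups. LIFR (chr5:38474963-38608354, minus strand) had 3219 and 3202 normalised counts in vehicle and 1509 and 1615 in octanoate. Both octanoate values were below both vehicle values, with a log2 difference of -1.04 (SE 0.07). Its ligand LIF was thus higher while LIFR was lower in the same libraries. Of the genes with a mean of at least 1000, 17 had a larger fall than LIFR.

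IL6R, the chain that binds IL6, was lower by less. IL6R (chr1:154405193-154469450, plus strand) had 2137 and 1993 normalised counts in vehicle and 1645 and 1588 in octanoate, a log2 difference of -0.35 (SE 0.07) with no overlap of the groups. IL6ST (chr5:55935095-55994993, minus strand), the shared signal-transducing chain, had 13039.8 and 13479 in vehicle and 12615 and 13043 in octanoate. Its groups overlapped, and the log2 difference was -0.05 (SE 0.06). IL6ST shares 705 bases at 96.0% identity with the pseudogene IL6STP1, so its count is uncertain. Exons of IL6ST, LIF and LIFR also overlap exons of an antisense gene in GENCODE 29, over 8.58% of the IL6ST exon bases (AC008914.1), 5.30% of those of LIFR (LIFR-AS1) and 4.41% of those of LIF (AC004264.1).

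In the authors' deposited table the log2 fold changes were 3.39 (SE 0.31) for CSF2, 2.43 (SE 0.08) for IL11, 2.32 (SE 0.06) for IL24 and 0.91 (SE 0.06) for LIF. The authors' deposited table lists -1.04 (SE 0.08) for LIFR, -0.35 (SE 0.09) for IL6R, -0.24 (SE 0.11) for CSF1 and -0.05 (SE 0.06) for IL6ST. For IL6 the authors' deposited table gives 1.67 with an SE of 1.26.

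**Figure D2:**
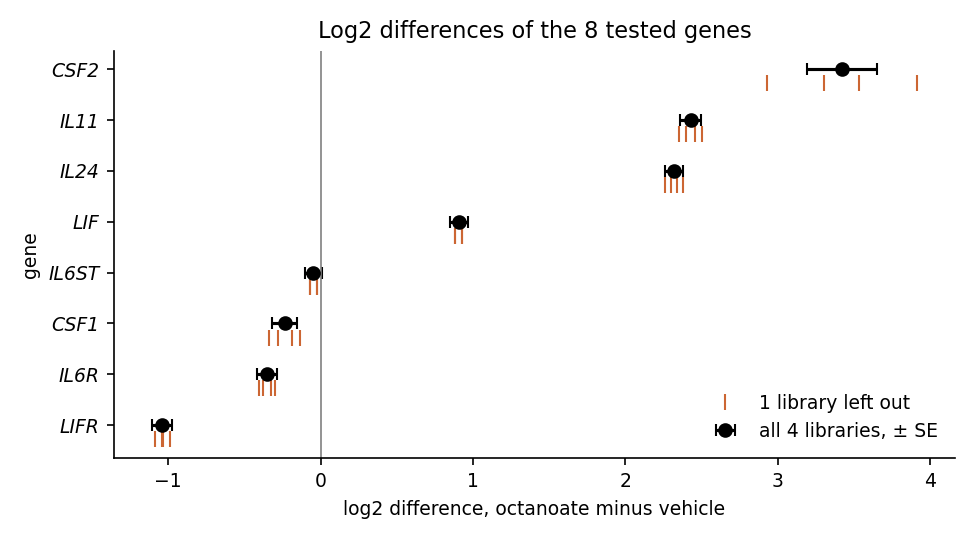
Log2 difference (octanoate minus vehicle) of the 8 tested genes, with the SE from the model as bars. Orange ticks show the values with 1 of the 4 libraries left out. CSF2 is spread most, from 2.93 to 3.91, and every tick of the other genes stays on the side of 0 of its own point. For all genes but IL6ST that side is fixed in advance, because their groups did not overlap.

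The genes were compared with each other as normalised counts per kilobase of merged GENCODE 29 exons. In vehicle, IL6ST (1427 ± 33.5 per kb, SD, n = 2) and IL24 (1353 ± 81.8) came first, and their libraries overlapped. LIF (871 ± 20.2), IL11 (416 ± 11.8), IL6R (320.0 ± 15.8), LIFR (271 ± 1.04), CSF1 (205 ± 20.6) and CSF2 (35.9 ± 17.2) followed without overlap between neighbours in this order. IL6 and CSF3 came last at 1.41 ± 1.32 and 0.439 ± 0.00405 per kb. Under octanoate the order was IL24 (6746 ± 120.2 per kb, SD, n = 2), IL11 (2244 ± 171), LIF (1633 ± 36.3), IL6ST (1381 ± 32.5) and CSF2 (375 ± 41.9). IL6R (250.5 ± 6.28), CSF1 (174 ± 8.04), LIFR (132 ± 6.29), IL6 (4.51 ± 1.77) and CSF3 (0.244 ± 0.345) followed, again without overlap between neighbours. On this per-length scale IL24, IL11 and LIF all stood above IL6ST under octanoate, whereas none of the 3 had a higher mean than IL6ST in vehicle. CSF2 went from below CSF1 and both ligand-binding receptor chains to above them.

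**Figure D3:**
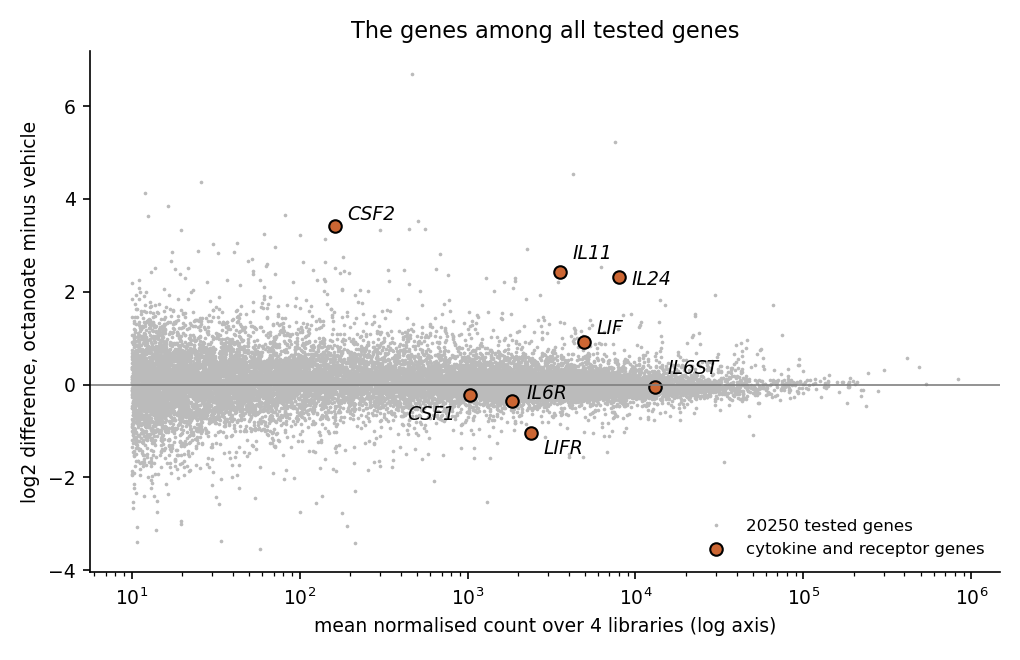
Log2 difference (octanoate minus vehicle) against mean normalised count over 4 libraries (log axis) for the 20250 tested genes (grey), with the 8 tested cytokine and receptor genes in orange. CSF2, IL11 and IL24 lie above the bulk of the grey points at their level, and CSF1, IL6R and IL6ST lie inside it.

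Promoter sequence was looked at because CSF2, IL11 and IL24 were higher together. The RefSeq table (GRCh38.p14) holds 9 start sites of 7 of the 10 genes. The 250 bases before each start were searched on both strands for an AP-1 motif (TGANTCA), a cAMP response element (TGACGTCA), a STAT motif (TTCNNNGAA), a C/EBP motif (TTGCNNAA), an ATF4 motif (TGATGNAA) and the NF-kappaB motif. Matches are in capitals below, each sequence runs 5′ to 3′ on the strand of its gene and a window with none is all lower case. These 3 genes are shown because they had the largest differences, and their windows are chr5:132073539-132073788 (plus) for CSF2, chr19:55370464-55370713 (minus) for IL11 and chr1:206897193-206897442 (plus) for IL24.
CSF2: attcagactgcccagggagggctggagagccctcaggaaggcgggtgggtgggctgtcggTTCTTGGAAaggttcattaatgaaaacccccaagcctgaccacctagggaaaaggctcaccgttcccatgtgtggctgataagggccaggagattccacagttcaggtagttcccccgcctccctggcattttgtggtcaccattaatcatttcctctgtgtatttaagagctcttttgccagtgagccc
IL11: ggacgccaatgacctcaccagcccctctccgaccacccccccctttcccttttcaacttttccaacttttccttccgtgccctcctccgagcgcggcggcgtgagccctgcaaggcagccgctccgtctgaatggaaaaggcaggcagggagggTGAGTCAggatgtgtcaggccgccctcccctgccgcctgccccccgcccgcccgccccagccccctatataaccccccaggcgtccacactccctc
IL24: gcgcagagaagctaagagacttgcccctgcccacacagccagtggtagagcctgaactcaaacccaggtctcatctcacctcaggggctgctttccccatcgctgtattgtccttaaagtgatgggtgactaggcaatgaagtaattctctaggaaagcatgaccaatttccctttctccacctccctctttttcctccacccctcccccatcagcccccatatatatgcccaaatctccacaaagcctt

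The IL11 window holds an AP-1 match, TGAGTCA, starting 96 bases before the start site. The CSF2 window holds a STAT match, TTCTTGGAA, 190 bases before it, and the IL24 window holds none of the 6 motifs. The window of IL6 holds a C/EBP match, TTGCACAA, at 155 bases and an NF-kappaB match, GGGATTTTCC, at 73 bases before its start, which do not overlap. The STAT motif also stands in a pair of the 3 windows of LIFR, a gene that was lower, as TTCCTTGAA at 165 bases and TTCATCGAA at 182 bases before the starts. The latter window also holds a C/EBP match at 31 bases, and the window of IL6ST holds an NF-kappaB match at 53 bases. The window of IL6R holds none of the motifs. No motif was shared by the windows of CSF2, IL11 and IL24. Over all 35116 windows of the same length, 6.57% held the AP-1 motif, 6.57% the STAT motif, 9.05% the C/EBP motif, 9.96% the NF-kappaB motif, 3.14% the ATF4 motif and 1.65% the cAMP response element. These matches are strings of letters in a window and were not measured as binding sites.

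Genes whose profile over the 4 libraries lay closest to each cytokine or receptor gene were found by root mean square distance between centred log2 profiles, among 13474 other genes with a mean of at least 100. With 4 libraries this is a description only. The closest gene to LIF was SOCS2 at a distance of 0.0158, a gene for an inhibitor of cytokine signalling, with a log2 difference of 0.90. STC1, which encodes the secreted hormone stanniocalcin 1, was closest to IL24 (distance 0.0271, log2 difference 2.30), and LYPD3 (0.0595) was also among its nearest genes. PTPRN (0.0633), TFPI2 (0.0759) and PDE2A (0.0817) were closest to IL11, and SLC26A2 (0.0339), TNS3 (0.0421) and LRRC46 (0.0446) to LIFR. KYNU (0.0186) and TFF2 (0.0244) came after SOCS2 for LIF. CSF2 had no close match: AC003092.1, C11orf86 and CREB3L3 were nearest at 0.330, 0.354 and 0.366. Within a distance of 0.1 there were 0 genes for CSF2, 8 for IL11, 13 for IL24, 28 for LIFR and 188 for LIF, against 2024 for IL6R, 3290 for CSF1 and 6294 for IL6ST. The nearest genes to these last 3 were CCDC149, KIFC1 and FAM53C for IL6R, SCNM1, HEXIM2 and PPAN for CSF1, and NAA15, SPRED1 and CREB1 for IL6ST.

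The nearest protein-coding genes on both sides of each gene in the RefSeq table were examined next, 20 neighbours in all, of which 13 had a mean of at least 10. The model called 7 of the 13 higher and 1 lower under octanoate (limma, adjusted p under 0.05), against 29.9% of all tested genes called in either direction. Among them STEAP1B next to IL6 rose by 0.21 on the log2 scale (SE 0.06, limma adjusted p 0.0175), a call that ended under 5 of 14 alternatives, among them leaving out vehicle 2 (adjusted p 0.101), octanoate 1 (0.113) or octanoate 2 (0.0505), with adjusted p from 0.000507 to 0.132 over the 14. TOMM7 on the other side of IL6 missed the test (log2 difference 0.15, limma adjusted p 0.0543) but passed without octanoate 2 (0.0327) and under 6 of 14 alternatives in all, with adjusted p from 0.00156 to 0.486. On the side of IL6ST with lower coordinates lies IL31RA, which encodes a receptor chain related to gp130. It rose from 463 and 480 to 1011 and 1040 normalised counts, by 1.12 on the log2 scale (SE 0.08, limma adjusted p 2.38e-10). On the other side ANKRD55 rose from 98.2 and 65.9 to 234 and 245 (log2 difference 1.56, SE 0.17, limma adjusted p 1.29e-07). IL6ST itself thus differed by -0.05 on the log2 scale between a pair of neighbours that rose. SHE, 0.186 kb from IL6R, rose by 1.10 (SE 0.12, limma adjusted p 1.85e-07) while IL6R was lower. EGFLAM next to LIFR fell by 0.47 on the log2 scale (SE 0.10, limma adjusted p 0.000952), and OSMR on the other side of LIFR rose by 0.27 (SE 0.06).

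Neighbours of CSF2, IL11, LIF and IL24 changed less than these genes or were hardly detected. EPS8L3, next to CSF1, had 1.96 and 2.91 normalised counts in vehicle and 10.6 and 9.75 in octanoate, and was under the limit for testing. IL3, next to CSF2, and OSM, next to LIF, were listed at 0 in all 4 libraries, and P4HA2 on the other side of CSF2 rose by 0.48 (SE 0.07, limma adjusted p 3.95e-06). IL20, next to IL24 and a cytokine of the same family, had at most 3.25 normalised counts in any library. FCMR, whose gene span runs into that of IL24 although no exons are shared, rose by 0.54 (SE 0.14, limma adjusted p 0.00412), a call that ended with DESeq2 (adjusted p 0.0834, with 0.000699 to 0.0834 over 14 alternatives). Both neighbours of IL11, GARIN5B (listed as FAM71E2) and TMEM190, stayed below 6 normalised counts in every library.

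**Figure D4:**
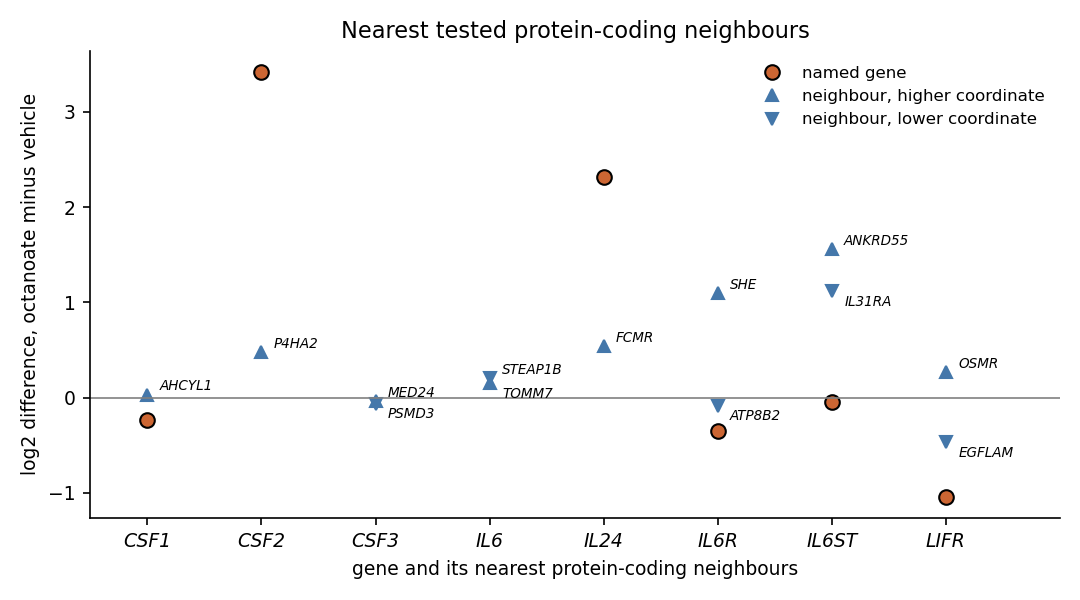
Log2 difference (octanoate minus vehicle) of 6 tested genes (orange circles) and of the nearest protein-coding neighbours of 8 genes, where these have a mean of at least 10 (triangles; IL6 and CSF3 were not tested and have no circle). ANKRD55 and IL31RA lie above IL6ST, SHE lies above IL6R, and P4HA2 and FCMR lie well below CSF2 and IL24.

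Lists of related genes were counted against the share of all 20250 tested genes that limma called, 29.9%, with 16.2% higher and 13.7% lower. Calls in both directions are thus found among all genes as well. The lists were written with earlier results of these data known, so their shares are a description and nothing is read from them. IL31RA and OSMR are in these lists and also among the neighbours above. Of 13 further IL6-family cytokine and receptor genes, 8 were tested, 5 rose and 2 fell (87.5% called), with a median log2 difference of 0.46 against 0.01 over all tested genes (limma, adjusted p under 0.05 over all genes). Besides IL31RA, the genes that rose included CLCF1, which encodes a cytokine that acts through CNTFR, gp130 and LIFR. CLCF1 rose from 850.0 and 753 to 1290 and 1269 normalised counts (log2 difference 0.68, SE 0.08, limma adjusted p 4.36e-07). CNTFR had 0.969 to 3.85 normalised counts and was not tested. OSMR, which pairs with gp130 for oncostatin M and with IL31RA for IL31, rose from 4591 and 4406 to 5304 and 5529 (limma adjusted p 0.00114), while OSM was listed at 0.

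IL11RA, the chain that IL11 needs, fell. It went from 372 and 345 down to 300.3 and 276 normalised counts, which is -0.31 on the log2 scale (SE 0.11, limma adjusted p 0.0329). The IL11RA call ended under 6 of 14 alternatives, where its adjusted p ranged from 0.00834 to 0.215 over all 14. Leaving out vehicle 1, vehicle 2 or octanoate 2 gave adjusted p values of 0.196, 0.0506 and 0.194. Exons of IL11RA overlap those of GALT (7.82% of its exon bases) and AL162231.3 (9.60%), so its count is uncertain. Of the 2 genes of this list that fell, 1 was called without vehicle 1, octanoate 1 or octanoate 2 and 0 without vehicle 2, while 5 or 6 rose in those fits.

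Of 9 genes for receptors of colony-stimulating factors and their relatives, CSF1R alone was tested, at 29.4 and 26.2 normalised counts in vehicle and 47.2 and 41.2 in octanoate. Its log2 difference of 0.65 (SE 0.28) did not pass the test (limma adjusted p 0.0798). CSF2RB, the shared chain of the GM-CSF receptor, had 0 in both vehicle libraries and 2.89 and 1.08 in octanoate, and CSF3R had 0 and 6.78 in vehicle and 2.89 and 11.9 in octanoate. CSF2RA, the ligand-binding chain of the GM-CSF receptor, was listed at 0 in all 4 libraries, as was IL3RA. Both lie in a pseudoautosomal region, a stretch present on X and Y. Of 18 protein-coding genes that GENCODE 29 places in such regions of both chromosomes, 16 were listed at 0, among them SLC25A6, an adenine nucleotide carrier of most cells, and VAMP7. CD99 and SPRY3 each had 1 read over all libraries. The level of CSF2RA therefore cannot be read from this table.

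IL24 acts through IL20RB paired with IL20RA or IL22RA1. IL22RA1 rose from 296 and 323 to 405 and 411 normalised counts (log2 difference 0.40, SE 0.10, limma adjusted p 0.00529). That call ended under 4 of 14 alternatives, among them leaving out vehicle 1 (adjusted p 0.0596), with adjusted p from 0.000450 to 0.0716 over the 14. IL20RB, at 81.5 and 73.6 in vehicle and 100.1 and 82.4 in octanoate, did not pass the test (limma adjusted p 0.401). IL20RA had 4.91 and 7.75 in vehicle and 0.963 and 1.08 in octanoate and was not tested. Of the 11 IL10-family genes, 4 were tested, 1 rose and none fell (29.9% of all tested genes were called), with a median log2 difference of 0.33; without vehicle 1 the number that rose was 0.

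Of 11 JAK and STAT genes, all were tested, 3 rose and 2 fell (45.5% called, against 29.9% of all tested genes), with a median log2 difference of -0.03. Without vehicle 2 or octanoate 2 the number that rose was 1, and the number that fell was 1 with any library left out. STAT3, the main transcription factor downstream of gp130, fell from 8548 and 8098 to 6703 and 6468 normalised counts (log2 difference -0.34, SE 0.06, limma adjusted p 7.49e-05). JAK3, the kinase of common gamma chain receptors, rose from 96.2 and 94.0 to 153 and 171 (log2 difference 0.76, SE 0.16, limma adjusted p 0.000592). STAT5B, which acts downstream of the GM-CSF receptor, rose by 0.23 (SE 0.06, limma adjusted p 0.00631). It shares 791 bases at 97.2% identity with STAT5A, and its call ended under 4 of 14 alternatives, among them leaving out vehicle 2 (adjusted p 0.0554) or octanoate 2 (0.0993), with adjusted p from 2.63e-05 to 0.139 over the 14.

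Of 16 inhibitors of JAK-STAT signalling, all tested, 1 rose, 2 fell and 13 were not called (18.8% called, against 29.9% of all tested genes), with a median log2 difference of -0.07. The number that fell was 1 with any library left out, and with the replicate block 2 rose and 4 fell. SOCS3, a feedback inhibitor induced by STAT3, fell from 1994 and 1697 to 1225 and 1074 normalised counts (log2 difference -0.68, SE 0.08, limma adjusted p 6.17e-07). SOCS2, a feedback inhibitor induced by STAT5, rose from 864 and 812 to 1599.7 and 1535 (log2 difference 0.90, SE 0.07, limma adjusted p 1.34e-09). SOCS5 fell by 0.17 on the log2 scale (SE 0.06, limma adjusted p 0.0272), a call that ended with any 1 library left out (adjusted p 0.0717 to 0.151) and under 7 of 14 alternatives in all, with adjusted p from 0.000807 to 0.162 over the 14. SOCS2 and SOCS5 share exon bases with SOCS2-AS1 (4.09%, opposite strand) and LINC01118 (2.11%, same strand).

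Of 20 genes known to respond to STAT3, 17 were tested, 9 rose and 5 fell (82.4% called, against 29.9% of all tested genes), with a median log2 difference of 0.37; without vehicle 1 the number that fell was 3. TIMP1, an inhibitor of matrix proteases, rose from 16016 and 13957 to 34264 and 30767 normalised counts (log2 difference 1.12, SE 0.07, limma adjusted p 3.88e-12). SERPINA3, the acute phase protein alpha-1-antichymotrypsin, fell from 476 and 423 to 150.2 and 134 (log2 difference -1.65, SE 0.12, limma adjusted p 1.67e-10), and it shares 1589 bases with AL049839.2. The acute phase gene SAA1 fell from 20.6 and 13.6 to 0.963 and 9.75 (log2 difference -1.95, SE 0.66, limma adjusted p 0.0286). Its mean was 17.1 in vehicle and 5.36 in octanoate, so it reached the limit of 10 for testing only through the vehicle group. Nothing is read from its call, which is among the 5 that fell. With a minimum mean of 50 the number that fell was 4. SAA1 shares 616 bases at 97.7% identity with SAA2, and without octanoate 1 its log2 difference was -0.72 (adjusted p 0.416, with 0.000749 to 0.416 over its 11 alternatives).

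Cytokine transcripts carry AU-rich elements and are kept short-lived by RNA-binding proteins, so regulators of their decay were counted too. Of 13 such genes, all tested, 4 rose and 4 fell (61.5% called, against 29.9% of all tested genes), with a median log2 difference of -0.06. Without the intensity trend 0 were called higher and 0 lower, and with no filter 3 were called higher and 0 lower. The number that fell was 2 without octanoate 1 and 1 without octanoate 2. ZC3H12A, an endonuclease that cleaves IL6 mRNA, rose from 347 and 280.0 to 541 and 560.3 normalised counts (log2 difference 0.82, SE 0.11, limma adjusted p 2.54e-06). ZFP36, which encodes the decay factor tristetraprolin, rose from 795 and 714 to 1081 and 1059.9 (log2 difference 0.51, SE 0.08, limma adjusted p 3.36e-05). ARID5A, which stabilises IL6 mRNA, rose by 0.38 (SE 0.12, limma adjusted p 0.0191), a call that ended under 5 of 14 alternatives, among them leaving out vehicle 2 (adjusted p 0.103) or octanoate 1 (0.144), with adjusted p from 0.00468 to 0.171 over the 14.

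Membrane proteases release the soluble form of IL6R. ADAM17, the main sheddase, had 4722 and 4785 normalised counts in vehicle and 5191 and 5138 in octanoate, which did not pass the test (log2 difference 0.12, SE 0.06, limma adjusted p 0.124); with the replicate block it did (0.0188, with 0.0188 to 0.348 over 14 alternatives). Its exons overlap those of IAH1 on the opposite strand. TIMP3, an inhibitor of ADAM17, rose by 0.21 (SE 0.07, limma adjusted p 0.0202), a call that ended under 5 of 14 alternatives, among them leaving out vehicle 2 (adjusted p 0.150), octanoate 1 (0.114) or octanoate 2 (0.121), with adjusted p from 0.000148 to 0.184 over the 14. The other 4 of the 5 genes of this list were not called (20.0% called, against 29.9% of all tested genes), and the list's median log2 difference was 0.12. With the replicate block 2 rose.

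**Figure D5:**
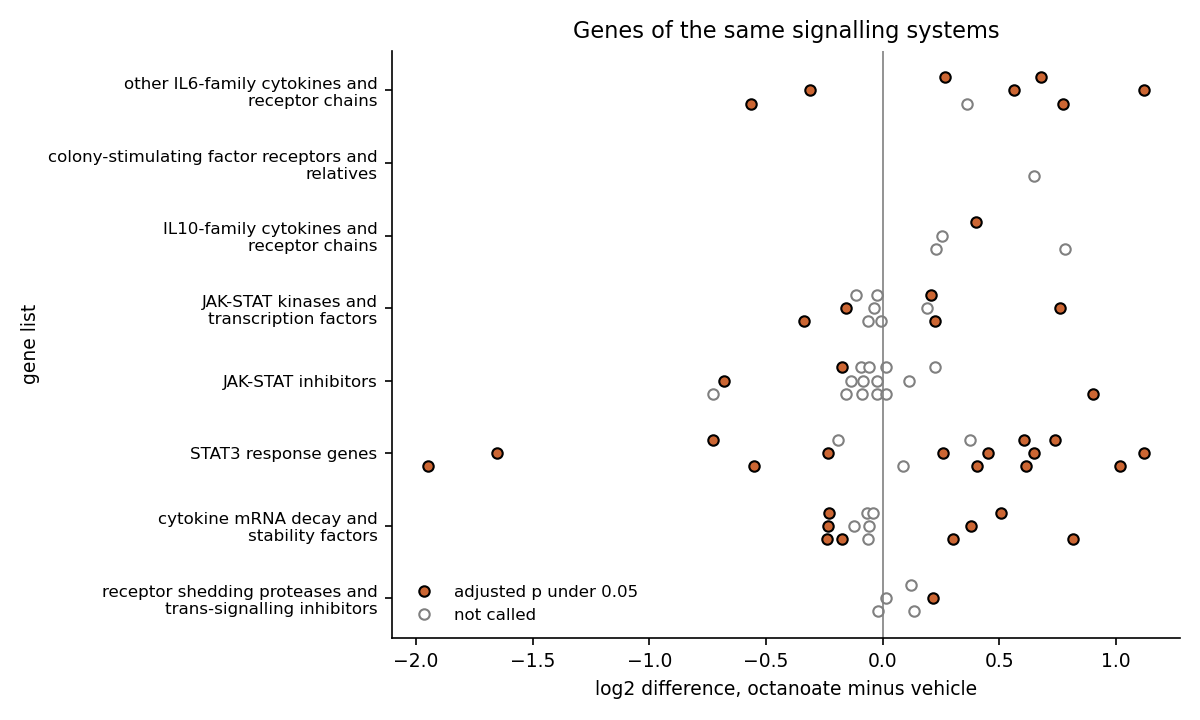
Log2 difference (octanoate minus vehicle) of the tested genes in 8 lists of related genes; filled points passed an adjusted p under 0.05 over all genes tested and open points did not. Filled points lie on both sides of 0 in 5 of the lists, and the list of receptors for colony-stimulating factors has a single tested gene.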

How the data were processed

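RNA of A375 cells was sequenced in 2 vehicle and 2 octanoate libraries. The submitters' processing notes name hg38, STAR 2.4, HTSeq 0.9.1 and DESeq2; the annotation and the use of strand are not given in the sources used here. The deposited signal is a read count per gene divided by 1 size factor per library, by the name of the table. All values were whole multiples of the library's smallest positive value (100%, tolerance 0.001), which gave the reads. The authors' deposited comparison gives log2 fold changes, a test score and p-values. limma 3.58.1 (R 4.3.3) was fitted to log2(normalised count + 1) with an intensity trend, over 20250 genes with a mean of at least 10, two-sided, with Benjamini-Hochberg adjustment. Log2 differences are on this scale and understate changes of low genes. 2 libraries against 2 cannot reach an exact permutation p below 0.333. The fit was also run on simulated data. No outcome of that run is given here, and nothing in the results rests on it. Gene models, overlaps and lengths came from GENCODE 29, shared sequence (at least 95% identity over at least 100 bases) from blastn 2.17.0. The 10 genes, the 8 lists and the tests were chosen with earlier results of these data known. Named were the 10 genes, up to 3 called genes with the largest difference in each list, fixed receptor partners and regulators, the 3 closest profiles and the nearest neighbours, of which some are not reported here; the marker genes and SLC25A6, VAMP7, CD99 and SPRY3 were chosen after their values were seen.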

Additional observations from a re-analysis of the deposited data

How the results depend on the processing

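The log2 differences of the 8 tested genes kept their sign under 14 alternatives: pseudocounts of 0.5 and 5, no filter, a minimum mean of 50, TMM factors, equal column totals, no intensity trend, the replicate block, each library left out, and recovered reads tested with edgeR 4.0.16 and DESeq2 1.42.0. The filter, the trend and the block leave these values as they are by construction. Leaving out 1 library cannot turn the sign of the 7 genes whose groups did not overlap, so for their sign it is no check. IL6, with 1 to 11 reads in each library, had a log2 difference that ran from 0.77 to 2.34 with 1 library left out. Over all genes, 6048 were called, with 2595 under no filter and 1625 without the intensity trend, and 4382 to 4878 with 1 library left out. Lower calls were 1600 without vehicle 1 and 1826 without octanoate 2, against 2777. Of the 75 tested list genes 39 were called, against 20 with no filter, 14 without the trend, and 29 to 31 with 1 library left out. Without the trend the calls of OSMR, STAT3, SOCS3, ZC3H12A and ZFP36 ended (adjusted p 0.101, 0.0738, 0.0664, 0.0541 and 0.0555, in each case the highest over 14 alternatives), as did that of P4HA2 (0.0695); the cause was not tested. The share of calls that were higher, 54.1%, was 67.4% without the trend and 64.3% without vehicle 1. Calls on the recovered reads were 6480 with edgeR and 4180 with DESeq2. What a replicate number stands for is not given in the labels; differences between replicates 1 and 2 in both groups had a correlation of 0.126 over genes. With the replicate block 8376 genes and 47 list genes were called; of the named list genes and neighbours ADAM17 and TOMM7 gained a call and none lost one.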
